A study of Mus musculus with 13 samples.

Results

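miR-21a is the mouse form of miR-21, and its precursor gives a 5p and a 3p strand, called arms here. Both arms, mmu-miR-21a-5p and mmu-miR-21a-3p, were taken by name from the deposited count tables. They are 2 of the 1164 mature microRNAs (miRNAs) listed for vesicles of cultured tumour cells and of the 1354 listed for plasma vesicles. The libraries numbered 13, all from Balb/C material. C26 cells, a mouse colon adenocarcinoma line that causes wasting when grown in mice, were kept 48 h in serum-free medium, and vesicles spun from that medium gave 3 libraries, called TMVs as in the labels. Plasma vesicles gave 6 libraries from mice killed 14 days after C26 cells were injected under the skin, labelled cachectic and called tumour-bearing below, and 4 libraries from control mice labelled healthy. All vesicles were pelleted at a last spin of 100000 g, so other particles that pellet at this speed can be among them, and the labels give no age or sex. The labels do not say whether each plasma library came from 1 mouse. Control replicates 2 and 3 have 2 numbers each in their descriptions. The p-values therefore reflect spread among libraries, which may be technical.

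MicroRNAs guide Argonaute proteins to messenger RNAs that match their seed, bases 2 to 8 from the 5′ end, and lower the output of those messages. The 5p arm of miR-21 is the strand mostly kept by Argonaute, and the 3p arm is mostly degraded. miR-21 is transcribed under STAT3, AP-1 and NF-κB in inflamed and growing cells, is raised in many carcinomas, and represses the tumour suppressor Pdcd4. In vesicles it is also known as a ligand of the RNA sensor Toll-like receptor 7 (TLR7), through which tumour vesicles can act on muscle cells.

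The sequences are shown because the counts of the arms and of 2 close copies depend on telling them apart. They are RefSeq mature sequences on GRCm38.p6, read 5′ to 3′, with the seed in capitals.
mmu-miR-21a-5p: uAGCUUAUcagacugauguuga
mmu-miR-21a-3p: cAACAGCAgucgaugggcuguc
mmu-miR-21b: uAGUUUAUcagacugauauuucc
mmu-miR-21c: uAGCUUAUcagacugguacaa
The 5p arm lies at chr11:86584120-86584141 and the 3p arm at chr11:86584082-86584103, both on the minus strand of GRCm38. In the GENCODE M21 annotation their precursor Mir21a spans 86584067 to 86584158. It sits inside exon 12 of Vmp1, in the part of that exon annotated as untranslated region, on the same strand. The sources used here do not name the build behind the deposited counts. Among 1738 RefSeq mature sequences, 1 other, miR-21c, has the seed of the 5p arm, and 0 others have the seed of the 3p arm. miR-21c, from chromosome 8, matches the 5p arm over its first 15 bases and first differs at A16G, counted from the 5′ end with the base of the 5p arm first. miR-21b, from chromosome 3, differs inside the seed at C4U. The counted reads fell almost wholly on the 5p arm: miR-21a-5p had 34457 counts over the 3 TMV libraries and 9399 over the 10 plasma libraries. miR-21c had 2 and 1, and miR-21b had 0 in both. A read cut short before base 16 would fit both miR-21a-5p and miR-21c, and the sources used here do not say how the counting treated such reads.

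Depth and one other miRNA differed between the plasma libraries. Plasma libraries held 7962 to 131385 counts and TMV libraries 112357 to 170571. The row miR-5119 held 26.6% to 58.7% of the counts in tumour-bearing replicates 1 to 4 and 46.1% in control replicate 4, and 0.0968% to 2.55% in the other 5 plasma libraries. The 5 libraries over 20% are called miR-5119-rich here. Tumour-bearing replicate 4 and control replicate 4 held fewer than 10000 counts. Whether the reads counted as miR-5119 come from that miRNA cannot be settled from counts. Shares of miR-21a in all counts are therefore given with miR-5119 in the total and without it.

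miR-21a-5p was one of the leading miRNAs of the vesicles that C26 cells release. It held 6.30%, 7.68% and 9.73% of the counts in TMV replicates 1 to 3, a mean of 7.90% ± 1.72 (SD, n = 3). Its rank among all rows was 3, 2 and 1 in these libraries. By mean share it came between let-7i-5p with 8.14% ± 1.1 and let-7c-5p with 6.37% ± 0.895, and both neighbours lay within 1 SD of it. The 95% Wilson intervals of the 3 shares, which cover counting error only, were 6.18% to 6.43%, 7.53% to 7.84% and 9.59% to 9.87%. The libraries thus differed by more than counting error, if reads are taken as independent. miR-5119 held at most 0.0382% of TMV counts, and leaving it out of the total gave a mean of 7.91%.

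In plasma vesicles miR-21a-5p held a smaller share, and the share was higher in most tumour-bearing libraries than in controls. In tumour-bearing replicates 1 to 6 it held 2.43%, 3.36%, 2.87%, 2.07%, 1.96% and 1.18% of the counts. In control replicates 1 to 4 it held 0.779%, 0.735%, 1.42% and 1.04%. The first 5 tumour-bearing libraries lay above all 4 controls, and tumour-bearing replicate 6 lay among them. The means were 2.31% ± 0.762 (SD, n = 6) and 0.993% ± 0.313 (SD, n = 4), a ratio of 2.33. The difference of 1.32 percentage points had p = 0.0190 in an exact two-sided permutation test of this single miRNA, where the smallest possible p is 0.00476. Leaving out control replicate 1 gave 0.0595, as did leaving out control replicate 2. Adjusted over the 7 exact tests made on the arms it was 0.133, and adjusted over the 130 miRNAs kept for the plasma test 0.310. Of those 130, 2.31% were higher at an unadjusted permutation p under 0.05 and 4.62% had at least 5 of 6 tumour-bearing libraries above all controls.

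**Figure D1:**
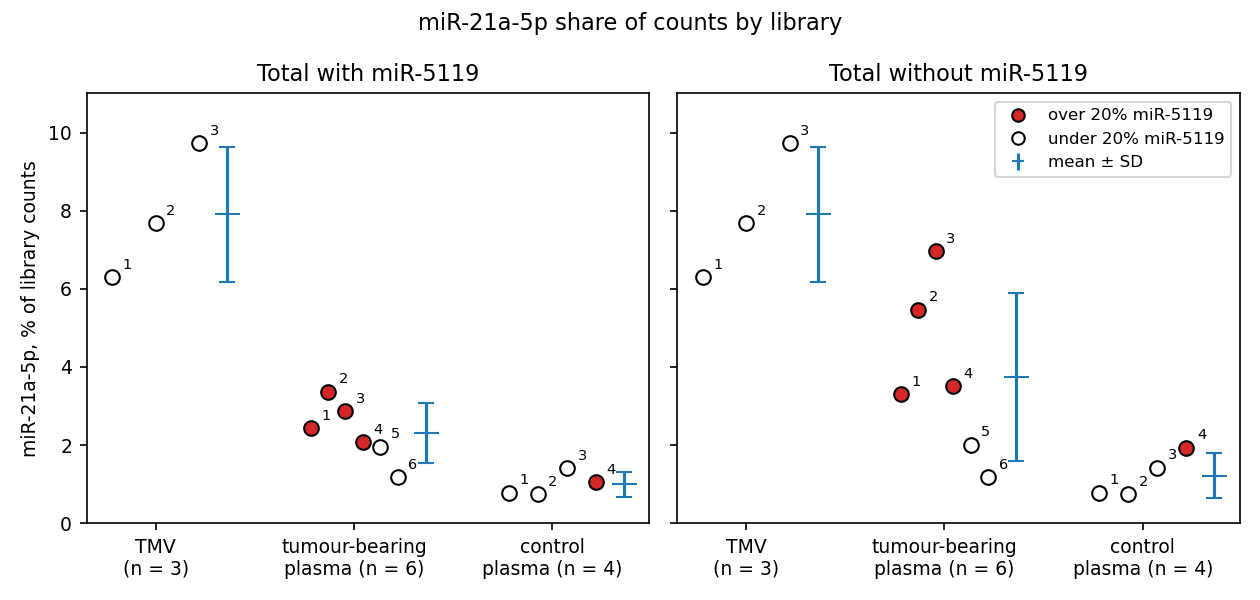
miR-21a-5p as percent of library counts (y axis) in TMVs, tumour-bearing plasma and control plasma, with miR-5119 in the total (left) and without it (right). Each point is 1 library with its replicate number, filled where miR-5119 exceeded 20%, and bars give mean ± SD. On the left the TMV libraries lie at 6.30% and above and the plasma libraries at 3.36% and below. On the right tumour-bearing replicate 3 rises to 6.96%.

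Taking miR-5119 out of the total widened both the difference and the spread. The share of miR-21a-5p was then 3.30%, 5.46%, 6.96%, 3.51%, 2.01% and 1.18% in tumour-bearing replicates 1 to 6 and, in the same order of replicates, 0.779%, 0.741%, 1.42% and 1.93% in the 4 controls. Again 5 of 6 tumour-bearing libraries lay above all controls, with replicate 5 only just above control replicate 4. The means were 3.74% ± 2.15 (SD, n = 6) and 1.22% ± 0.570 (SD, n = 4), a ratio of 3.06. The exact two-sided permutation p was 0.0571, adjusted over the 7 tests 0.2 and over 129 miRNAs 0.670, so this share did not pass. On this total 0.775% of the 129 miRNAs were higher at an unadjusted permutation p under 0.05, and 6.98% had at least 5 of 6 tumour-bearing libraries above all controls. With miR-5119 left out, tumour-bearing replicate 3 at 6.96% exceeded TMV replicate 1 at 6.30%, so TMV and tumour-bearing plasma overlapped. TMVs and plasma were counted in separate tables and prepared from different material, and no test was made between their shares.

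The libraries rich in miR-5119 also had more miR-21a-5p among their other counts, in both groups. Without miR-5119 in the total, the 4 rich tumour-bearing libraries held 3.30% to 6.96% and the other 2 held 1.18% to 2.01%. The 1 rich control held 1.93% and the other 3 controls 0.741% to 1.42%. Tumour-bearing libraries were rich more often than controls, 4 of 6 against 1 of 4, and the part of this in the group difference was not tested apart from the fits with a term given below. Within the rich libraries all 4 tumour-bearing values lay above the single control. Within the poor libraries tumour-bearing replicate 5 lay above all 3 controls and replicate 6 lay below control replicate 3.

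Tumour-bearing replicate 6, the library with the least miR-21a-5p of its group, had the highest sum of red cell miRNAs. The 4 listed red cell miRNAs (miR-451a, miR-486a-5p, miR-144-3p and miR-16-5p) summed to 52.9% of its counts without miR-5119. Their range was 4.77% to 52.9% over tumour-bearing and 11.1% to 31.5% over control libraries. The sum in replicate 6 came mostly from miR-486a-5p, while miR-451a, scaled to a common library size, stood lower there than in any other plasma library. Of the 4, 1 had a log2 fold change above 0 and 3 below. The 3 liver miRNAs (miR-122-5p, miR-192-5p and miR-194-5p) summed to 0.851% to 14.0% in tumour-bearing and 9.24% to 28.3% in control libraries, and all 3 had a log2 fold change below 0. When miR-486a-5p and miR-122-5p, the leading red cell and liver miRNAs, were also left out of the total, tumour-bearing replicates 1 to 6 held 3.81%, 6.14%, 7.32%, 4.17%, 2.57% and 2.71% miR-21a-5p. Control replicates 1 to 4 then held 1.42%, 1.28%, 2.14% and 2.27%. All 6 tumour-bearing libraries lay above all 4 controls on this total, which held for 0.787% of 127 miRNAs, miR-21a-5p being that 1 miRNA. This total was chosen after the values were seen. Its exact two-sided permutation p was 0.0238, adjusted over 127 miRNAs 0.484.

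White blood cell, platelet and muscle miRNAs were also followed, since blood and tissue cells shed vesicles into plasma. The 5 white blood cell miRNAs (miR-142a-3p, miR-142a-5p, miR-150-5p, miR-155-5p and miR-146a-5p) summed to 0.352% to 1.62% in tumour-bearing and 0.570% to 1.54% in control libraries without miR-5119, with 4 of 5 log2 fold changes above 0. The 3 platelet and endothelial miRNAs (miR-126a-3p, miR-126a-5p and miR-223-3p) summed to 0.430% to 3.88% and 0.662% to 1.35%, with 3 of 3 above 0. Their log2 fold changes were 0.37 (SE 0.374), 3.23 (SE 1.38) and 2.27 (SE 1.72). The other arm miR-223-5p, outside the list and named after its value was seen, had -0.02 (SE 0.682). Over all 130 miRNAs tested, 66 lay above 0 and 64 below. The 3 muscle miRNAs (miR-1a-3p, miR-133a-3p and miR-206-3p) summed to 1.76% to 20.3% and 0.730% to 7.43%, with 3 of 3 above 0. The 7 listed epithelial miRNAs (miR-200a-3p, miR-200b-3p, miR-200c-3p, miR-141-3p and miR-215-5p, with miR-192-5p and miR-194-5p from the liver list) summed to 0.797% to 3.14% and 1.98% to 3.80%, and the 4 tested had log2 fold changes below 0. Of epithelial miRNAs outside that list, named after their values were seen, miR-203-3p had 0.22 (SE 0.530) and miR-205-5p -0.46 (SE 0.617). Both lay within 1 SE of 0, so they give no clear direction beyond the members listed. None of the listed markers was at 0 in every plasma library. Their part in the miR-21a-5p difference was not tested. In bulk plasma, more vesicles from one source and more miR-21a-5p per vesicle cannot be told apart.

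A model across all plasma miRNAs put miR-21a-5p higher in tumour-bearing mice without a call. The levels here are CPM, that is counts put on one common library size, here with TMM factors that allow for differences in composition. miR-21a-5p stood at 25088, 32189, 45124, 20651, 17229 and 13298 in tumour-bearing replicates 1 to 6 and, in the same order of replicates, 8620, 6319, 10497 and 14341 in the 4 controls. Replicate 6 of the tumour-bearing group lay below control replicate 4, and the other 5 lay above all controls. The log2 fold change was 1.37 (SE 0.438). In edgeR's quasi-likelihood test the unadjusted p was 0.00934, the fourth smallest of 130, and the adjusted p was 0.304. Of the 130 miRNAs 0% were called at an adjusted p of 0.05, and 6.92% were higher at an unadjusted p under 0.05. The median log2 fold change over all 130 was 0.01, with 66 above 0 and 64 below, and miR-21a-5p had the twentieth largest.

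**Figure D2:**
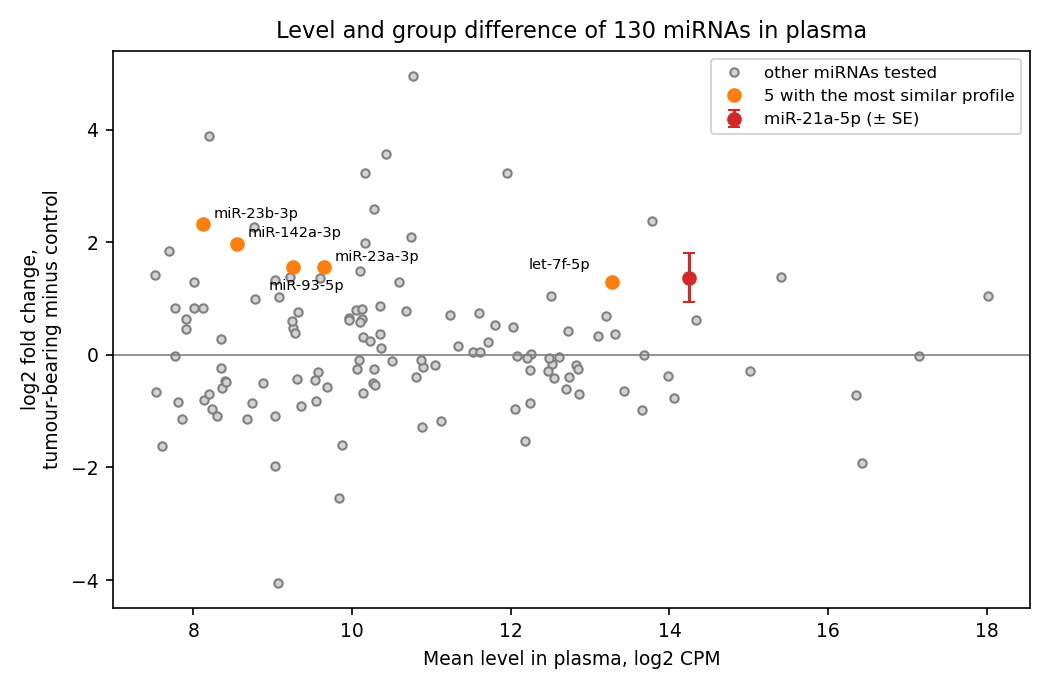
Mean level in plasma as log2 CPM (x axis) against the log2 fold change of tumour-bearing minus control (y axis) for the 130 miRNAs tested. miR-21a-5p (red, with its SE) stands at 1.37, to the right of most miRNAs with a fold change of that size, and the 5 miRNAs with the most similar profile across libraries are in orange.

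The call depended on the tool. DESeq2 on the same miRNAs gave a log2 fold change of 1.58 and an adjusted p of 0.0317, and called 3.1% of 129. limma voom with quality weights, which lets noisy libraries count less, gave 1.43 and an adjusted p of 0.0247, and called 13.1% of 130. edgeR without a filter on low counts gave 1.22 and an adjusted p of 0.333, and called 0.419% of 955. The log2 fold change stayed above 0 in all 26 alternative fits, from 0.76 to 1.79.

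The difference was smaller when the miR-5119-rich libraries were taken into account. With a term for them the fitted difference was 0.95 on the log2 scale (SE 0.423, edgeR adjusted p = 0.413). Within the 5 poor libraries it was 0.84 (SE 0.462, edgeR adjusted p = 0.466), from 2 tumour-bearing libraries and 3 controls. Within the 5 rich libraries it was 1.05 (SE 0.733, edgeR adjusted p = 0.745), and the single control there is assumed to vary like the other libraries. The difference between rich and poor in this fold change was 0.25 (SE 0.840, edgeR interaction, adjusted p = 0.942). With the term and without the libraries under 10000 counts the difference came to 0.76 (SE 0.475, edgeR adjusted p = 0.481).

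**Figure D3:**
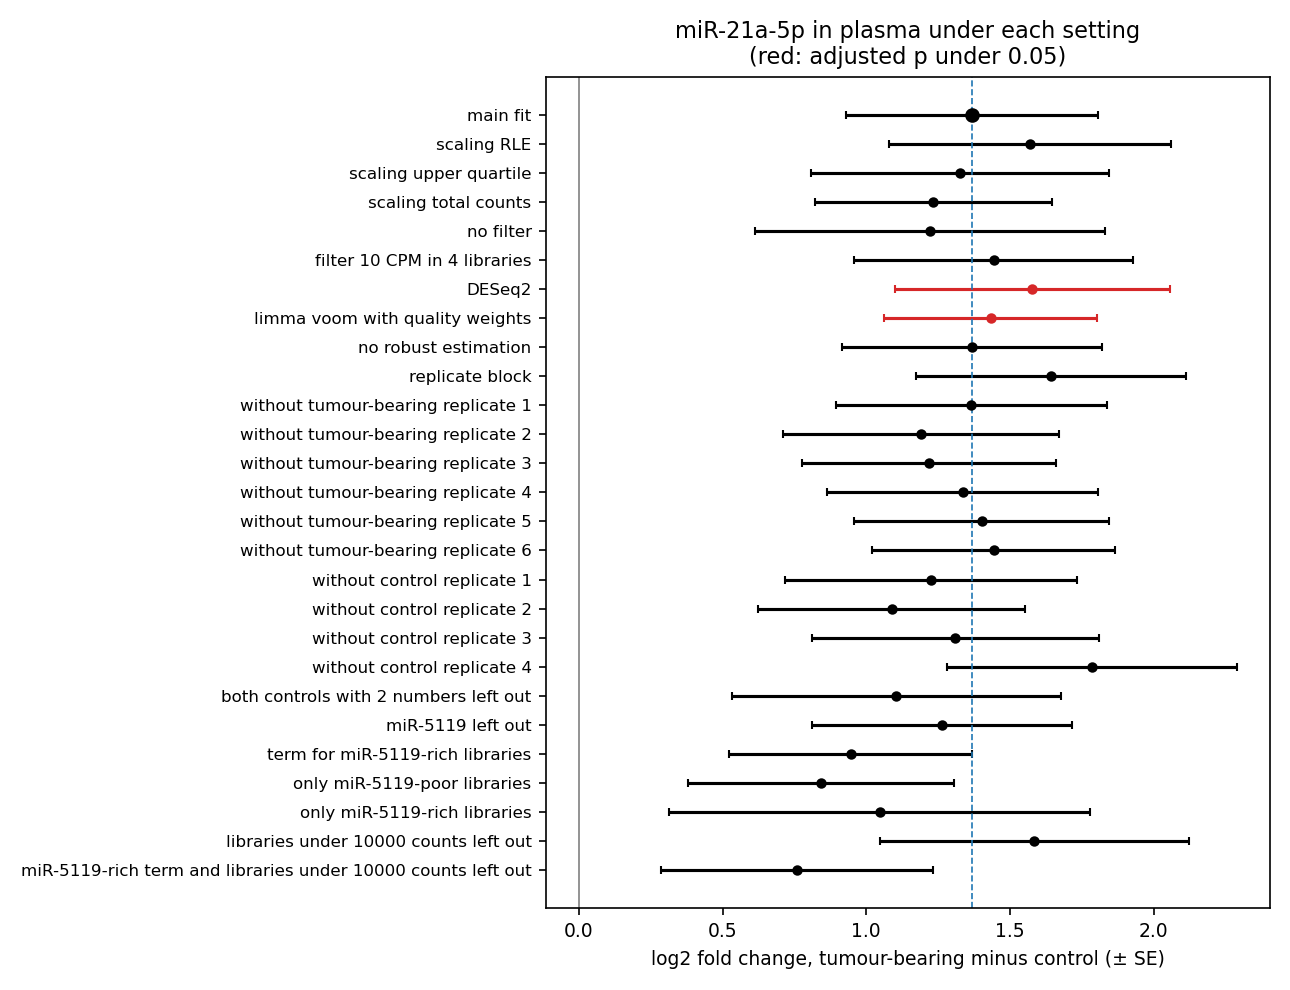
log2 fold change of miR-21a-5p in plasma, tumour-bearing minus control (x axis, point ± SE), in the main fit (dashed line) and in 26 alternative fits. All points lie between 0.76 and 1.79, and the fits in red, DESeq2 and limma voom, had an adjusted p under 0.05.

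Among all rows of a plasma library, miR-21a-5p ranked 5, 6, 5, 9, 10 and 14 in tumour-bearing replicates 1 to 6 and, in the same order of replicates, 21, 23, 11 and 12 in the 4 controls. Without miR-5119 the ranks were 4, 5, 4, 8, 9 and 14 and then 21, 22, 11 and 11. The 5 best ranks were all in the tumour-bearing group, whose replicate 6 ranked behind control replicates 3 and 4. By mean share it was the seventh miRNA of tumour-bearing plasma, after miR-451a with 2.82% ± 1.25 and before let-7i-5p with 2.23% ± 0.643. Both of these lay within 1 SD of miR-21a-5p. In control plasma it was the fourteenth, between miR-128-3p with 1.09% ± 0.812 and miR-126a-3p with 0.900% ± 0.283, again within 1 SD. The leading rows were miR-5119, miR-486a-5p and miR-148a-3p in tumour-bearing plasma and miR-486a-5p, miR-122-5p and miR-5119 in control plasma. Their mean shares ran from 6.30% to 28.0% and from 11.9% to 16.1%.

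The 3p arm was close to absent. miR-21a-3p had 7, 3 and 2 counts in TMV replicates 1 to 3. It had 0, 2, 1, 0, 0 and 0 counts in tumour-bearing replicates 1 to 6 and, in the same order of replicates, 5, 0, 4 and 0 in the 4 controls. Over all 13 libraries 24 counts of the 3p arm stood against 43856 of the 5p arm, and 6 libraries, all from plasma, had none. It did not pass the filter on low counts of the plasma test, while miR-21a-5p did.

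As a percent of the counts of both arms, the 3p arm held 0.0757%, 0.0347% and 0.0121% in TMV replicates 1 to 3. The 95% exact intervals, for counting error only, were 0.0305% to 0.156%, 0.00717% to 0.101% and 0.00146% to 0.0435%. In plasma it held 0.0778% in tumour-bearing replicate 2 and 0.0526% in replicate 3. It held 0.507% in control replicate 1 (exact interval 0.165% to 1.18%) and 0.215% in control replicate 3 (0.0585% to 0.549%). Where no 3p read was counted, taking 0 as up to 3 counts allows a 3p share of up to 0.549% to 1.48% in tumour-bearing replicates 1, 4, 5 and 6. The same limit is 0.732% in control replicate 2 and 3.61% in control replicate 4, where the 5p arm itself had 83 counts. These limits lie above every 3p share measured, so a 0 in these libraries does not separate them from the libraries with counts.

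**Figure D4:**
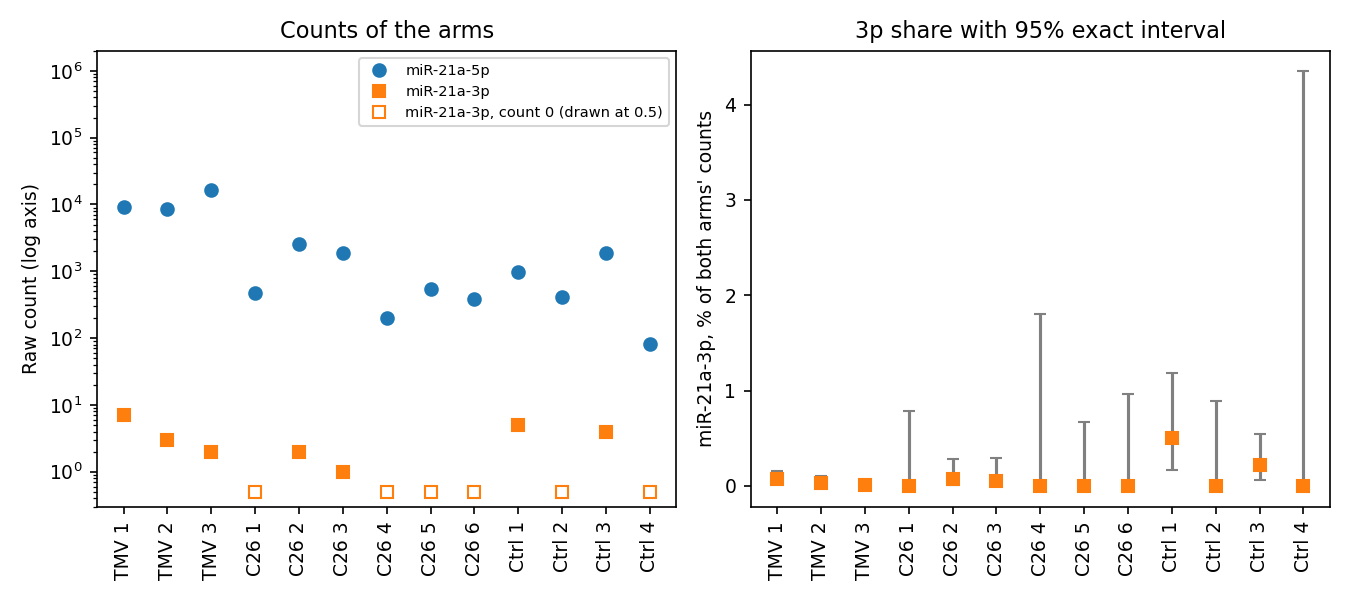
Raw counts of miR-21a-5p and miR-21a-3p by library on a log axis (left; a 3p count of 0 is drawn at 0.5) and the 3p arm as percent of both arms' counts with its 95% exact interval (right). The 5p arm has 83 to 16591 counts and the 3p arm at most 7. The widest interval is that of control replicate 4.

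Comparisons of the arms between groups depended on the scale. The 3p percent of both arms averaged 0.0217% ± 0.0346 (SD, n = 6) in the tumour-bearing group and 0.180% ± 0.240 (SD, n = 4) in controls, with an exact two-sided permutation p of 0.133 (adjusted over the 7 tests 0.311). Without control replicate 1, which had 5 of the 9 control counts, the difference moved from -0.159 to -0.0498 percentage points. As log2 of 3p over 5p with 0.5 added to each count it was -1.44 (exact permutation p = 0.0286), but where no 3p read was counted that value is set by the 5p count alone. In TMVs the percent averaged 0.0408% ± 0.0323 (SD, n = 3). Against control plasma the exact two-sided permutation p was 0.457, where 3 against 4 libraries allow at the smallest 0.0286, and against tumour-bearing plasma it was 0.440, with 0.0119 as the smallest (both adjusted 0.533). The TMV difference from control plasma moved from -0.140 to -0.0307 percentage points without control replicate 1. The difference from tumour-bearing plasma turned from 0.0191 percentage points to -1.66 on the log2 scale (exact permutation p = 0.0238). As a share of all counts the 3p arm held 0.00287% ± 0.00181 (SD, n = 3) in TMVs, with or without miR-5119 in the total. It held 0.000689% ± 0.00112 (SD, n = 6) in tumour-bearing and 0.00175% ± 0.00206 (SD, n = 4) in control plasma (exact two-sided permutation p = 0.357, adjusted 0.533). Without miR-5119 in the total the plasma values were 0.00132% ± 0.00205 and 0.00176% ± 0.00206 (exact two-sided permutation p = 0.929). In edgeR without a filter its log2 fold change was -0.94 (SE 1.60, adjusted p = 0.740). Summed over libraries, 12 of the reads from both arms in TMVs were 3p, a share of 0.0348% (95% exact interval 0.0180% to 0.0608%). In tumour-bearing plasma 3 were, 0.0494% (0.0102% to 0.144%), and in control plasma 9 were, 0.269% (0.123% to 0.510%). The intervals of TMVs and control plasma did not overlap, but they cover counting error only and leave out the spread between libraries.

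The minor arm of miR-21a was also set among those of precursors with at least 500 counts over both arms, in each group. In TMVs the minor arm of miR-21a held 0.0348% of the summed counts of both arms, and 7 of 49 precursors had a lower value, with a median of 0.611%. In tumour-bearing plasma it held 0.0494%, and 6 of 33 had a lower value, with a median of 0.661%. In control plasma it held 0.269%, and 20 of 39 had a lower value, with a median of 0.254%. With both plasma groups summed it held 0.128%, a value that depends on the mix of the groups, and 16 of 47 had a lower one. These are descriptions of summed counts, with no test, and the sets of precursors differ between groups. The miR-21a values rest on 12 counts of the 3p arm in TMVs, 3 in tumour-bearing plasma and 9 in control plasma. Of those 9, control replicate 1 had 5. A few minor-arm counts can move the place of a precursor, so whether the place of miR-21a differs between groups cannot be told.

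Across the 10 plasma libraries the levels of let-7f-5p, miR-93-5p, miR-142a-3p, miR-23b-3p and miR-23a-3p were most like that of miR-21a-5p. Pearson's r of log2 CPM was 0.91, 0.87, 0.84, 0.82 and 0.81 in that order, against a median of 0.05 over 129 miRNAs. The points are 10 libraries that share depth and miR-5119 content and span both groups, so these are descriptions. A miRNA chosen this way tends to share the group difference of miR-21a-5p, so the fold changes of the 5 given below are no separate evidence. The r of miR-5119 itself with miR-21a-5p was 0.80, close to that of miR-23a-3p. After the means of rich and poor libraries were taken out, r of the 5 was 0.85, 0.72, 0.71, 0.53 and 0.41. With the group means taken out instead, it was 0.80, 0.89, 0.85, 0.83 and 0.92. let-7f-5p belongs to the let-7 family of growth-restraining miRNAs and can share reads with its near-identical relatives. It stood at 12878 ± 6338 (SD, n = 6) and 5298 ± 3192 (SD, n = 4) TMM-scaled CPM in tumour-bearing and control plasma (log2 fold change 1.30, SE 0.502, edgeR adjusted p = 0.395). miR-142a-3p, a miRNA of blood cells, stood at 474 ± 531 and 128 ± 64.1 (log2 fold change 1.98, SE 0.914, edgeR adjusted p = 0.395). miR-93-5p, of the miR-106b-25 cluster, stood at 1.56 (SE 0.727) in log2 fold change, and miR-23b-3p and miR-23a-3p, which differ by few bases and can share reads, had 2.32 (SE 1.12) and 1.56 (SE 1.09). None of the 5 was called by edgeR.

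**Figure D5:**
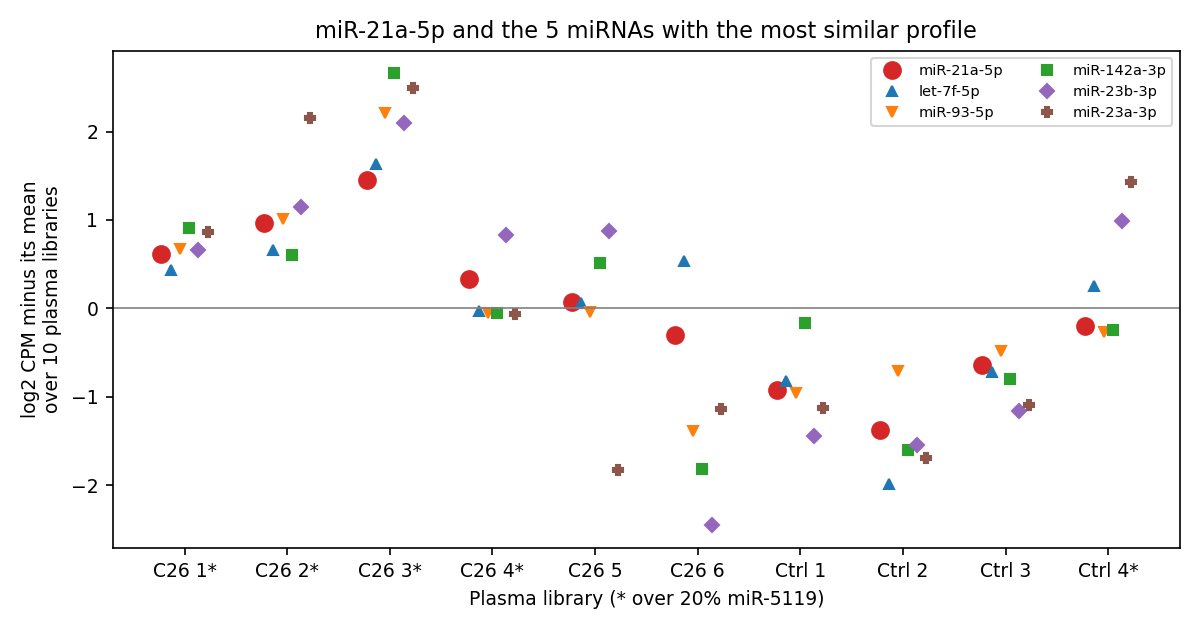
log2 CPM of miR-21a-5p and the 5 miRNAs with the most similar profile, each minus its own mean over the 10 plasma libraries (y axis), by library (x axis; a star marks miR-5119-rich libraries). All 6 miRNAs stand highest in tumour-bearing replicate 3 and below their mean in control replicates 1 to 3.

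Other miRNAs tied to inflammation, tumour growth, TLR7 and muscle wasting were set beside miR-21a-5p, and edgeR called 0 in any of these lists. For 0 calls over all 130, 15 miRNAs had an unadjusted p under 0.05, DESeq2 called 4 and limma voom 17. Of 12 inflammation-linked miRNAs 7 were tested, 4 above 0 and 3 below, with a median log2 fold change of 0.05, against 0.01 over all 130. miR-223-3p, abundant in granulocytes and platelets, had 2.27 (SE 1.72). miR-146a-5p, which dampens NF-κB signalling, had -1.18 (SE 0.600), and miR-146b-5p, of the same seed family, -0.40 (SE 0.392). For miR-146a-5p control replicate 4 stood at 7948 TMM-scaled CPM. Control replicates 1 to 3, at 1529, 2004 and 2077, lay within the tumour-bearing range of 490 to 2305. The value of miR-21a-5p had the opposite sign to both miR-146 members, and the difference between them was not tested.

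Of 17 tumour-promoting miRNAs 8 were tested, 4 above 0 and 4 below, with a median of 0.11. Besides miR-93-5p these included miR-17-5p of the miR-17-92 cluster with 1.85 (SE 1.20), miR-25-3p with -0.37 (SE 0.537) and miR-222-3p, which represses cell cycle inhibitors, with -0.50 (SE 0.798). In TMVs miR-222-3p held 0.743% ± 0.237, miR-25-3p 0.493% ± 0.0495 and miR-93-5p 0.0701% ± 0.0172 (SD, n = 3), all well under the share of miR-21a-5p.

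Of the 5 miRNAs on the TLR7-linked list 4 were tested, 2 above 0 and 2 below, with a median of -0.06. let-7a-5p had 1.04 (SE 0.407) and an unadjusted p under 0.05, while let-7b-5p had -0.60 (SE 0.720), let-7c-5p -0.27 (SE 0.397) and miR-29a-3p 0.16 (SE 0.520). In TMVs let-7c-5p held 6.37% ± 0.895, within 1 SD of miR-21a-5p. let-7b-5p held 3.64% ± 0.607, let-7a-5p 1.29% ± 0.211 and miR-29a-3p 1.06% ± 0.202 there (SD, n = 3). Of 10 muscle-wasting-linked miRNAs 7 were tested, 4 above 0 and 3 below, with a median of 1.38. The muscle miRNAs miR-133a-3p, miR-206-3p and miR-1a-3p had 2.09 (SE 0.853), 2.60 (SE 1.15) and 1.38 (SE 0.806), and miR-181a-5p, linked to mitochondrial turnover in muscle, had -1.61 (SE 0.565). miR-133a-3p held 0.00975% ± 0.0147, miR-206-3p 0.130% ± 0.0319 and miR-1a-3p 0.349% ± 0.479 of TMV counts (SD, n = 3), against the 7.90% of miR-21a-5p. The SD of miR-1a-3p exceeded its mean, so its share was uneven between TMV libraries.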

How the data were processed

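Small RNA libraries from 3 TMV and 10 plasma vesicle preparations were read as 75 bp single reads, per the labels' protocols. Per the submitters' processing notes the authors used bcl2fastq and cutadapt 1.10, and the sources used here name no aligner, counting tool, miRNA annotation or build. The authors deposited raw counts per mature miRNA in 2 tables. Low plasma miRNAs were dropped with filterByExpr (by group, minimum count 10). The rest were TMM-scaled and fitted by the robust quasi-likelihood method of edgeR 4.0.16 in R 4.3.3, with Benjamini-Hochberg adjustment over the 130 miRNAs kept. edgeR reports no SE. The SE given for its fits is the size of the log2 fold change divided by the square root of the test's F statistic. It is therefore approximate and adds nothing to the p-value. Alternatives used DESeq2 1.42.0, limma 3.58.1, other scalings and filters, left-out libraries, a replicate block, and the miR-5119 content. Scripts were tested on simulated data. Shares were compared with exact two-sided permutation tests on means over the 210 ways to divide 6 and 4 libraries (Python 3.11.15, scipy 1.17.1). Shares of single libraries have 95% Wilson or exact intervals. Intervals and limits for a count of 0 (3 counts) cover counting error only and treat reads as independent. One molecule can give several reads, so they can be too narrow even for that error. The limit of 3 counts is 0.0377% of the shallowest library and 0.00228% of the deepest plasma library.

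Members, lists, tests and alternatives were chosen with earlier results of these data known. Named are the 2 arms, rows named miR-21b or miR-21c or sharing a seed, the 5 miRNAs of highest Pearson r with miR-21a-5p, the 3 most abundant rows and the rank neighbours of each group, and up to 4 members of smallest p in each list. Rank neighbours were added after the data were seen. Both member names matched RefSeq.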

Additional observations from a re-analysis of the deposited data

Results flagged for a closer look

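For miR-21a itself no library stood far from the rest of its group. Among the miRNAs named beside it, 10 of 50 sets of values (each miRNA or arm measure in each plasma group) had 1 library far from the others by Dixon's test. Chance gives about 1 in 20 for independent sets of normal values. These sets share libraries, hold values not put on a log scale and were partly chosen from these data. The 10 of 50 therefore cannot be set against that rate. Values are TMM-scaled CPM. Control replicate 4, the shallowest library, accounted for 5 of these. miR-146a-5p stood there at 7948 against 2077 in the next control, and miR-223-3p at 691 against 61.5. miR-23a-3p stood at 1210 against 180.6 and miR-23b-3p at 346 against 50.8, while miR-222-3p had 0 against 1845. The lowest value above 0 in that library was 173, so its values from 0 to 1210 rest on few counts. Tumour-bearing replicate 3, the library highest in miR-21a-5p, stood far from its group in let-7f-5p (25211 against 12881) and miR-142a-3p (1521 against 429). Tumour-bearing replicate 6 did so in let-7b-5p (17497 against 5396) and miR-206-3p (7349 against 1608), and tumour-bearing replicate 5 in miR-222-3p (2335 against 1155).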

How the results depend on the processing

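The log2 fold change of miR-21a-5p in plasma lay above 0 in all 26 alternative fits. It passed an adjusted p of 0.05 with DESeq2 (1.58, adjusted p = 0.0317) and limma voom (1.43, adjusted p = 0.0247). In the other fits the edgeR adjusted p ran from 0.154 to 0.998, and with each library left out in turn the log2 fold change ran from 1.09 to 1.79. RLE scaling moved the median of all miRNAs by 0.18, and relative to that median miR-21a-5p stood at 1.38. Without a filter the median of 955 mostly sparse miRNAs was 0.88, and miR-21a-5p stood 0.34 above it. The count of miRNAs called was 4 without a filter, 4 with DESeq2, 17 with limma voom, 2 with the miR-5119 term, 1 within the rich libraries and from 0 to 1 with each library left out (1 without tumour-bearing replicate 2 or 3).

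With a replicate block the log2 fold change was 1.64 (edgeR adjusted p = 0.164) and 0 miRNAs were called, while 33 had an unadjusted p under 0.05 against 15. Tumour-bearing replicates 5 and 6 have no control of the same number. The block therefore takes them out of this fold change, which rests on the 4 pairs of equal number. Libraries of the same number shared only the number: their deviations correlated from -0.37 to 0.16 over 4 pairs, and 0 of 4 controls correlated best with the tumour-bearing library of its own number.

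The difference in the share of miR-21a-5p lost p under 0.05 without control replicate 1 or control replicate 2 (1.25 and 1.23 points, exact permutation p = 0.0595 for each), without both controls that carry 2 numbers (1.40 points, 0.0714), without the libraries under 10000 counts (1.38 points, 0.0714) and within the poor libraries (0.59 points, 0.300, where 2 against 3 libraries cannot reach 0.05). With each library left out it ran from 1.11 to 1.54 points. Without miR-5119 in the total the difference passed on a log2 scale (1.50, exact permutation p = 0.0429) and with miR-122-5p and miR-486a-5p also left out (2.67 points, 0.0238). That last total was chosen after the values were seen, and its permutation p adjusted over 127 miRNAs was 0.484. The difference without miR-5119 ran from 1.87 to 3.03 points with each library left out, passing without tumour-bearing replicate 5 (2.86, 0.0476) or 6 (3.03, 0.0159). These replicates had the lowest shares of their group, so leaving either out had to widen the difference. For the 3p arm, the share without miR-5119 turned higher in tumour-bearing plasma without control replicate 1 (0.000298 points) and on a log2 scale (0.059), and ran from -0.00103 to 0.000298 points with each library left out. On a log2 scale with 0.5 added to each count, the ratio of 3p to 5p was lower in tumour-bearing than control plasma by a difference of -1.44 (exact permutation p = 0.0286), and lower in TMVs than in tumour-bearing plasma by -1.66 (exact permutation p = 0.0238), the opposite direction to the percent. In the 6 libraries with no 3p count that ratio is set by the 5p count and the added 0.5 alone. Depth limits the 3p arm most, with at most 7 counts in a library.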
